A study of Caenorhabditis elegans with 66 samples.

Results

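The rare mature piRNAs of cluster II are a set of 2516 small RNAs encoded on chromosome IV of *Caenorhabditis elegans*. They were every piRNA of the deposited mature piRNA table whose gene starts between positions 13500000 and 17200000 (assembly WBcel235, also called ce11) and whose wt value was under 3 on the log2(RPM + 1) scale, where RPM is the number of reads scaled to a common library size. This left 2516 of the 4317 piRNAs in the table. In cluster II the table lists 3356 piRNAs, and the 840 with a wt value of 3 or more are called abundant here. The table holds no piRNA that was as high in *rpb-9* as in wt, so every member was lower in *rpb-9* by the way the table was made, and the *rpb-9*, rescue and wt mature levels of the members are given as a description, with no test.

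The series compares *C. elegans* animals with and without a functional RPB-9, a small subunit of RNA polymerase II. The *rpb-9 (mj261)* animals carry a premature stop codon in the gene, the rescue animals *(mj261; mjSi70)* carry the same allele together with an *rpb-9* transgene driven in the germline by the *mex-5* promoter, and the wt animals carry the unmutated gene. The *mj261* allele came from a screen in a strain with a piRNA sensor transgene, and all animals were grown at 20 °C on HB101 bacteria. Mature piRNAs came from 5′-dependent small RNA libraries of whole animals, labelled as treated by oxidation (3 per genotype), which the table reduces to 1 value per genotype, and precursors from short capped RNA of the chromatin-bound (nascent) and nucleoplasmic fractions of germ nuclei of young adults (2 libraries per genotype and fraction). The precursor table lists 11382 loci, of which 6266 carry a 21UR name and 5116 are of another type, named by position. Neither table gives levels of messenger RNAs, so the *rpb-9* transcript and markers of germ cells were not checked.

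piRNAs of *C. elegans* are called 21U-RNAs, since the mature molecules are 21 nt long and mostly begin with uridine. They are bound by the Argonaute PRG-1 in the germline, where they recognise foreign and transposon transcripts and start the production of secondary siRNAs. Each motif-dependent piRNA is its own RNA polymerase II transcription unit: an upstream element known as the Ruby motif marks the gene, transcription starts a short distance before the first base of the piRNA, and the short capped precursor is trimmed from both ends. A piRNA that yields few mature molecules is therefore still the product of a separate promoter and a separate termination event.

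Mature sequences of members to which the results return, read from the RefSeq copy of WBcel235, are shown 5′ to 3′ as DNA with the first base in capitals. 21UR-786 had the largest drop in *rpb-9*, 21UR-4586 was the highest wt member listed at 0 in *rpb-9*, 21UR-1847 and 21UR-1083 were the loci whose nascent precursors passed the test, 21UR-4997 is named in the study, and 21UR-6682 begins with C.
21UR-786 (chrIV:15810667-15810687, minus strand): Tgtgttggtagagtttttact
21UR-4586 (chrIV:16829252-16829272, plus strand): Taagtacctaaaggacaaagc
21UR-1847 (chrIV:13914730-13914750, minus strand): Tggattggccaattgcggaca
21UR-1083 (chrIV:16131757-16131777, plus strand): Tctgtgcggaactcagaaaca
21UR-4997 (chrIV:15621889-15621909, plus strand): Tatgaacaacaaaaaacacaa
21UR-6682 (chrIV:15903595-15903615, plus strand): Ctgacttagatattctgcatg

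Upstream sequences are shown for 2 members in which the full 8-letter Ruby core was found, because that feature went with the share of the wt mature level left in *rpb-9*. The 60 bases before the piRNA and the piRNA itself are printed, with CTGTTTCA and the first base of the piRNA in capitals. 21UR-8063 had one of the smallest differences between *rpb-9* and wt, and 21UR-5085 was among the members with most wt nucleoplasmic precursor reads (20 and 3, the same total as in 21UR-1490 and 21UR-5916).
21UR-8063 (chrIV:15493507-15493587, plus strand): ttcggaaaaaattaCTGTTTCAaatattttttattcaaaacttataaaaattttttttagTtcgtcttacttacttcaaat
21UR-5085 (chrIV:14415831-14415911, minus strand): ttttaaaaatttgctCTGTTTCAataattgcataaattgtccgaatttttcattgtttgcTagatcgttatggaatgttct

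Rare members looked like other cluster II piRNA genes in most of the sequence features examined. The first base was T in 2460 members (97.8%), against 97.0% of the abundant piRNAs, and 1295 members lay on the plus and 1221 on the minus strand. No pair of members shared a mature sequence. The median GC content of the 21 bases was 28.6% in the members and 33.3% in the abundant piRNAs. CTGTTTCA on the piRNA's own strand within 60 bases upstream was found in 780 members (31.0%), in 28.2% of the abundant piRNAs and in 33.5% of the 15363 annotated piRNA genes. Its first base stood at a median of 46 bases before the piRNA start, and on the other strand the same letters were found in 20 members (0.795%). The inner letters GTTTC, which every CTGTTTCA contains, were found in 1813 members (72.1%) and in 74.2% of all annotated piRNA genes.

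Most members lay outside protein-coding genes. Only protein-coding genes of the WBcel235 gene annotation were counted as hosts, and intergenic here means outside them. By this rule 1725 members (68.6%) were intergenic, 773 (30.7%) lay in an intron and 18 overlapped an exon. The intronic members fell in 162 host genes, 384 of them on the strand of the host and 389 on the opposite strand. 21UR-8608, for example, lies in an intron of *pals-29* on the same strand, and 21UR-4505 in an intron of *fbxa-83* on the opposite strand.

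In wt animals the members were scarce by construction. On the scale of the table, which is the mean over libraries of log2(RPM + 1), the member median was 0.32 in *rpb-9*, 0.97 in rescue and 0.94 in wt animals. The difference *rpb-9* minus wt had a median of −0.49 and ran from −2.74 to −0.00047. The corresponding median was −1.91 over the abundant piRNAs and −0.69 over the whole table. Because 1 is added to every RPM before the logarithm, this scale understates the change of low values. Proportions were taken here from sums of back-transformed values. These only approximate summed RPM, since the mean over libraries was taken on the log scale. Back-transformed values summed to 1325 RPM in *rpb-9*, 4284 RPM in rescue and 4084 RPM in wt, so that the members held 32.4% of the wt sum in *rpb-9* and 105% in rescue. Over the abundant piRNAs these shares were 24.3% and 97.8%, and over the 710 rare piRNAs of cluster I (wt value under 3) they were 20.3% and 122%.

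Rescue animals had mature levels near those of wt for the set as a whole, with single members on both sides. Rescue was above *rpb-9* in 2333 members (92.7%), below it in 134 and equal to it in 49. The share above *rpb-9* was 94.2% over the whole table, where every piRNA was lower in *rpb-9* than in wt. It was 100% over the abundant piRNAs. Rescue was above wt in 1179 members and below it in 1337, with a median difference of −0.02, which turned to 0.048 over members with at least 1 RPM. The share above wt was 46.9% in the members and 47.1% over the whole table. Single members ran from −1.30 to 1.54 in rescue minus wt.

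**Figure D1:**
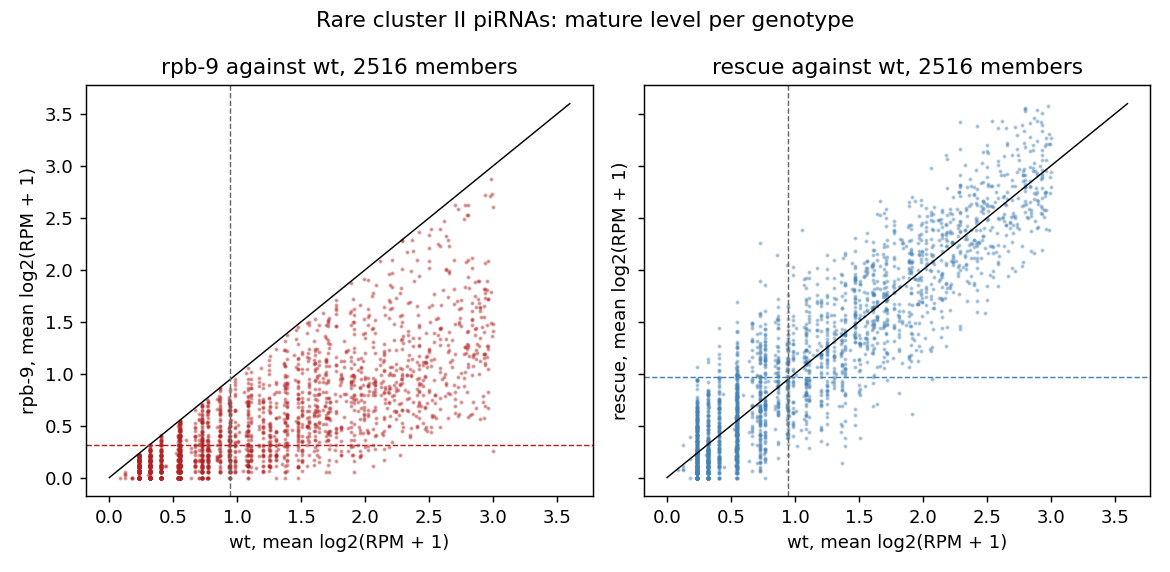
Mature level of each of the 2516 members, with the mean log2(RPM + 1) of rpb-9 (left) or rescue (right) on the vertical axis and of wt on the horizontal axis; the diagonal marks equal values and the dashed lines mark medians. All points lie under the diagonal in the left panel, as the table was made, while the rescue points lie on both sides of it, and the low wt values form vertical stripes because few reads stand behind them.

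The stripes in the plot of mature levels allowed the reads behind the values to be worked out. For each genotype the low values are sums of a few fixed steps, as whole reads in 3 libraries give in *rpb-9* and rescue. The wt values were matched by 2 libraries (98.4% of wt values under 1) and by no combination of 3 that the search tried, although 3 wt libraries are labelled. The steps implied library totals of 9000499, 8124378 and 7396277 reads in *rpb-9*, 10924014, 7661417 and 3782503 in rescue, and 2634941 and 1813824 in wt. Whole reads were recovered in all 3 genotypes for 2333 members (92.7%), within 4e-09 of each value. Which labelled library each total belongs to is unknown.

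A rare member rested on a median of 6 reads in *rpb-9*, 22 in rescue and 4 in wt. In wt, 517 members (22.2% of those with whole reads) were represented by 1 read, and 808 (34.6%) had reads in only 1 of the 2 wt libraries. *rpb-9* was sequenced 5.51 times as deeply as wt in the pooled libraries, so the lower *rpb-9* values came from the more deeply sequenced libraries. Per library, these members summed to 1032, 1274 and 1371 RPM in *rpb-9*, to 4264, 3768 and 3832 RPM in rescue, and to 3976 and 3715 RPM in wt. The *rpb-9* libraries lay below all the others, and rescue and wt libraries overlapped. The mean was 1226 ± 174 RPM in *rpb-9*, 3954 ± 270 RPM in rescue (SD, n = 3 each) and 3846 ± 184 RPM in wt (SD, n = 2), which put *rpb-9* at 31.9% and rescue at 103% of wt. These samples are whole animals, so fewer germ cells and fewer piRNAs per germ cell cannot be told apart.

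The share of wt that remained in *rpb-9* changed little with how rare a member was. Members with 1 wt read stood at 28.5% of wt in *rpb-9*, those with 2 at 30.02%, those with 3 to 4 at 33.8%, those with 5 to 9 at 32.1%, those with 10 to 19 at 31.3% and those with 20 to 40 at 30.9%. In rescue the same 6 groups stood between 102% and 111% of wt. Over these groups the median difference on the log2 scale went down with depth, being −0.18 in members with 1 wt read and −1.40 in those with 20 to 40, while the proportions stayed between 28.5% and 33.8%. Since the members were ordered here by their own wt reads and had entered the table by being lower in *rpb-9*, both patterns are descriptions.

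**Figure D2:**
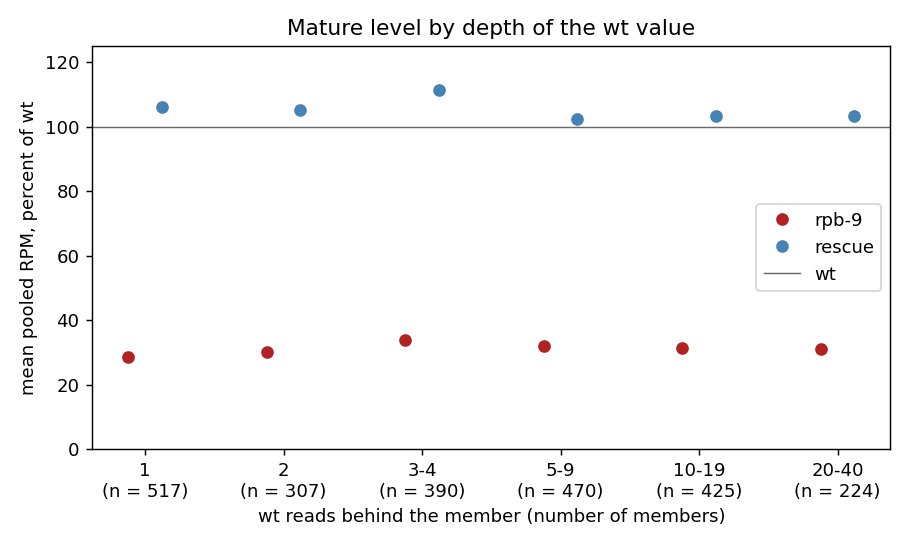
Mean pooled RPM of members grouped by the number of wt reads behind them (horizontal axis, number of members in brackets), as percent of wt, for rpb-9 (red) and rescue (blue); the line marks wt. rpb-9 lies between 28.5% and 33.8% of wt in all 6 groups and rescue between 102% and 111%.

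Some members were not seen in *rpb-9* at all. In the deposited values 273 members (10.9%) were listed at 0 in *rpb-9* and 75 (2.98%) in rescue. None could be at 0 in wt, since the table holds only piRNAs that were higher in wt than in *rpb-9*. Of the rare piRNAs of cluster I, 23.2% were listed at 0 in *rpb-9*. Among members with whole reads, 260 had 0 reads over the 3 *rpb-9* libraries, which allows up to 0.122 RPM (3 counts over the pooled reads, counting error only), and 212 of these had at least 1 read in rescue. Zeros went with few wt reads: 174 of the 517 members with 1 wt read had none in *rpb-9* (33.7%), against 58 of the 307 with 2, 22 of the 390 with 3 to 4, 6 of the 470 with 5 to 9 and 0 of the 425 with 10 to 19.

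The 5 highest wt members listed at 0 in *rpb-9* were 21UR-4586, 21UR-8608, 21UR-37, 21UR-1893 and 21UR-12529. 21UR-4586 had 0, 0 and 0 reads in *rpb-9*, 13, 6 and 0 in rescue, and 5 and 3 in wt. 21UR-37 had 0, 0 and 0 reads in *rpb-9*, 11, 9 and 4 in rescue, and 5 and 2 in wt. Both were read in wt and rescue and in no *rpb-9* library. Their deposited values in rescue were 0.66 and 1.06, against 1.47 and 1.30 in wt. The other 3 had rescue values of 0.38 to 0.85 and wt values of 1.08 to 1.37.

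The members with the largest drops came from the upper end of the set, where a drop has room. 21UR-786 had 0, 4 and 1 reads in *rpb-9*, 56, 45 and 23 in rescue, and 12 and 19 in wt. Its values were 0.25 in *rpb-9*, 2.74 in rescue and 3.00 in wt. 21UR-5833 (0.58, 2.19 and 2.93 in *rpb-9*, rescue and wt) and 21UR-4505 (0.56, 2.40 and 2.89) followed. None of these 3 had CTGTTTCA in the 60 bases upstream, which 69.0% of all members lacked. Among the smallest drops were those of 21UR-8063 and 21UR-1965 (both 0.32 in wt), which had 1 wt read each. Their drops could not exceed that wt value. Both carried CTGTTTCA, beginning 46 or 47 bases upstream.

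21UR-4997, a piRNA predicted to target transposons, had 1, 1 and 0 reads in *rpb-9*, 9, 4 and 3 in rescue, and 1 and 1 in wt. Its values were 0.11 in *rpb-9*, 0.77 in rescue and 0.55 in wt. With 2 wt reads in all, its order among genotypes rests on single molecules. No precursor of it was listed. The lowest wt values, those of 21UR-6120, 21UR-292 and 21UR-431 (0.09 to 0.13), were under the step of 1 wt read, 0.23, and are left without a read count.

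At the boundary of the set the values ran on without a gap. The members nearest under the threshold were 21UR-4514 with 1.48 in *rpb-9*, 2.80 in rescue and 3.00 in wt, 21UR-6444 with 2.60, 3.27 and 3.00, and 21UR-6064 with 1.41, 2.94 and 3.00. The nearest cluster II piRNAs outside it were 21UR-420 with 1.95 in *rpb-9*, 3.23 in rescue and 3.01 in wt, 21UR-2374 with 1.94, 3.55 and 3.01, and 21UR-294 with 1.75, 3.37 and 3.01. The 3 members have the same pair of wt read counts, 18 and 13.

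Members with and without the full upstream motif differed in how much mature piRNA remained. The 715 members with whole reads and CTGTTTCA summed to 414, 465 and 493 RPM in *rpb-9*, 1381, 1106 and 1192 RPM in rescue, and 1112 and 1053 RPM in wt. Their mean in *rpb-9* was 457 ± 39.9 RPM, or 42.2% of the wt mean of 1083 ± 42.0 RPM. The 1618 members without it summed to 618, 810 and 877 RPM in *rpb-9*, 2883, 2661 and 2640 RPM in rescue, and 2863 and 2662 RPM in wt. They stood at 27.8% of wt in *rpb-9*. Per member the *rpb-9* libraries held 0.579 to 0.690 RPM with the motif and 0.382 to 0.542 RPM without it, ranges that did not overlap, while the wt libraries held 1.47 to 1.56 and 1.65 to 1.77 RPM. In rescue the 2 kinds stood at 113% and 98.7% of wt. The comparison uses the contrast by which the table was made and carries no test.

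Position in the genome went with smaller differences. Intronic members stood at 32.5% and intergenic members at 31.5% of wt in *rpb-9*. In 8 consecutive stretches of cluster II the median difference *rpb-9* minus wt ran from −0.53 to −0.46. Members with a listed precursor stood at 31.1% of wt in *rpb-9* and had 2.07 RPM per member in wt, against 33.8% and 1.09 RPM for members with none.

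Precursors were listed for 1447 of the 2516 members (57.5%), matched by piRNA name. The share was 91.5% for the abundant piRNAs and 36.5% for the 8032 annotated cluster II piRNA genes that the mature table does not list. For 41 members, between positions 16606262 and 16733465, the precursor table places the piRNA 1 base later than the annotation, and all 41 begin with T at its position. A precursor was listed more often for members with more mature reads in wt. The share was 35.2% for members with 1 wt mature read, 44.0% with 2, 50.4% with 3 to 4, 67.7% with 5 to 9, 75.6% with 10 to 19 and 79.5% with 20 to 40.

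Within a genotype, mature level and nascent signal went together only loosely across members. Spearman's rho over all 2516 members was 0.23 in *rpb-9*, 0.34 in rescue and 0.36 in wt. Among members with a nascent read it was 0.11 (n = 696), 0.21 (n = 953) and 0.23 (n = 1130). These points share libraries and sequencing depth, and most rest on few reads. 21UR-6682 is an extreme case: it had 188 and 206 nascent wt reads but 1 mature wt read, and its mature form would begin with C.

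Nascent precursors of the members were less abundant in *rpb-9* and rescue nuclei than in wt nuclei. The wt libraries carry a strain name that the labels do not give, and are wt as the only genotype left once the others are matched. For the members, the 2 *rpb-9* libraries held 2704 and 4944 reads, the rescue libraries 2942 and 4216, and the wt libraries 11442 and 9707. After the authors' scaling the summed signal was 762 and 945 in *rpb-9*, 988 and 1123 in rescue, and 1889 and 2085 in wt. The 3 genotypes did not overlap. The mean was 854 ± 129 in *rpb-9*, 1056 ± 95.1 in rescue and 1987 ± 139 in wt (SD, n = 2 each), so *rpb-9* stood at 43.0% and rescue at 53.1% of wt (log2 ratios −1.22 and −0.91). The exact two-sided permutation test over libraries gave p = 0.333 for each pair, the smallest value that 2 libraries against 2 allow. As a share of all reads in the table, loci of the other type included, the members took 0.241% and 0.239% in *rpb-9*, 0.310% and 0.256% in rescue, and 0.624% and 0.457% in wt.

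The abundant cluster II piRNAs stood at 47.7% of wt in *rpb-9* and 51.4% in rescue. Rare reads amounted to 27.3% and 26.3% of abundant reads in *rpb-9*, 31.5% and 29.9% in rescue, and 29.9% and 29.5% in wt. The *rpb-9* libraries were the lowest in this ratio, and with p = 0.333 in the exact permutation test, again the smallest possible, the difference could not pass. The 10 most read loci held 16.8% to 20.7% of the members' nascent reads in a library.

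Fewer loci were seen as well. Nascent reads were found at 471 and 486 member loci in *rpb-9*, 535 and 786 in rescue, and 833 and 853 in wt. This fall was not particular to the members. The abundant piRNAs had reads at 449 and 471 loci in *rpb-9* and at 618 and 639 in wt. Over all loci with a 21UR name the numbers were 2297 and 2364 in *rpb-9*, and 3814 and 3897 in wt. In the pooled pair of libraries 564 members were read in both *rpb-9* and wt, 566 in wt and not in *rpb-9*, and 132 in *rpb-9* and not in wt. Of the 566, rescue libraries held a read of 264. Over the 1262 loci read in either genotype the mean signal was lower in *rpb-9* at 977 and higher at 285. Over the 1129 loci read in rescue or *rpb-9*, rescue was higher at 691 and lower at 438. Over the 1345 loci read in rescue or wt, rescue was lower at 918 and higher at 427. These counts depend on depth, and the *rpb-9* and rescue libraries held fewer member reads than the wt libraries. The comparisons with wt share the same wt libraries.

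**Figure D3:**
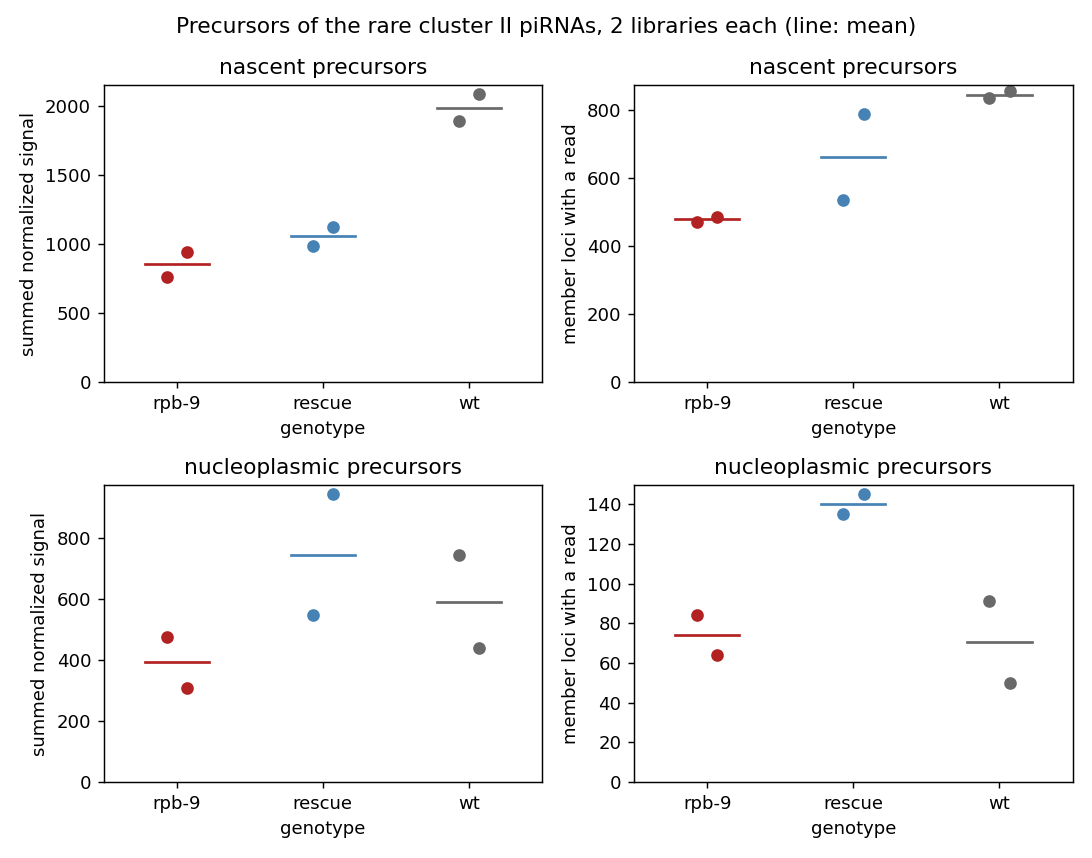
Summed normalized signal (left) and number of member loci with a read (right) in each nascent (top) and nucleoplasmic (bottom) library; points are libraries, 2 per genotype, and lines are means. Nascent signal is 762 and 945 in rpb-9, 988 and 1123 in rescue, and 1889 and 2085 in wt, while the nucleoplasmic values of rpb-9 and wt overlap.

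In nascent precursor the kinds of members stood between 40.5% and 43.5% of wt in *rpb-9*. Loci with CTGTTTCA stood at 41.4% of the wt nascent signal in *rpb-9* and loci without it at 43.4%. The same shares were 54.4% and 52.7% in rescue. Intergenic loci stood at 43.5%, intronic loci on the host strand at 42.5% and on the opposite strand at 41.4% of wt in *rpb-9*. The 104 loci whose mature piRNA was listed at 0 in *rpb-9* stood at 40.5% of wt in nascent signal, against 43.2% for the others. A test of the differences between these kinds was not run.

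Few single loci had enough reads for a test. Of the 1447 loci, 206 passed a minimum of 10 reads in 2 of the 6 nascent libraries. Of these, 47 passed through the wt libraries alone, so that their read counts, before scaling, had to be lower in the other genotypes. Among the 206, edgeR's quasi-likelihood test (adjusted p under 0.01 and a log2 fold change past 1) called 2 lower and 0 higher in *rpb-9* than in wt. Over all 3100 loci tested 0.968% were called lower and 0.581% higher. These loci are 1407 with a 21UR name, of which 29 were called lower and 2 higher, and 1693 of the other type, of which 1 was called lower and 16 higher. At an unadjusted p under 0.05 in edgeR there were 62 members (30.1%), against 930 of all 3100 loci. Among the 1407 loci with a 21UR name there were 565 (40.2%). Among the 371 abundant cluster II piRNAs tested there were 155 (41.8%). The share in the members was below both, a difference that was not tested. In 145 members the *rpb-9* and wt libraries did not overlap, lower in 142 and higher in 3, against 62.3% of all loci without overlap. Of the loci with a 21UR name 71.8% did not overlap, 968 lower and 42 higher, so the share in the members, 70.4%, was near that background. Because of the 47, these shares are no support for a lower level in the members.

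The loci called were those of 21UR-1847 and 21UR-1083, both intergenic and both without CTGTTTCA upstream. The nascent signal of 21UR-1847 was 0.282 and 0.574 in *rpb-9*, 7.39 and 3.73 in rescue, and 14.03 and 12.9 in wt, from 1 and 3, 22 and 14, and 85 and 60 reads. The log2 fold change of *rpb-9* over wt was −4.82 (SE 0.78, edgeR adjusted p = 0.0066). The nascent signal of 21UR-1083 was 0.846 and 0.382 in *rpb-9*, 2.35 and 3.46 in rescue, and 16.2 and 10.3 in wt, with a log2 fold change of −4.44 for *rpb-9* over wt (SE 0.79, edgeR adjusted p = 0.0090). At both loci rescue lay between *rpb-9* and wt without overlap. Rescue over *rpb-9* had log2 fold changes of 3.54 (SE 0.80, edgeR adjusted p = 0.114) and 2.27 (SE 0.83, edgeR adjusted p = 0.308), which did not pass. Both calls were lost when either *rpb-9* library or wt replicate 1 was left out, with edgeR adjusted p-values of 0.041, 0.045 and 0.022 for 21UR-1847 and 0.038, 0.057 and 0.050 for 21UR-1083. The mature piRNAs of both loci had to be lower in *rpb-9* than in wt, by the way the mature table was made. As a description, 21UR-1847 had mature values of 0.30 in *rpb-9*, 1.58 in rescue and 1.91 in wt, and 21UR-1083 had 1.48, 3.30 and 2.74.

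No member was called between rescue and *rpb-9*. edgeR called 0 of the 206 and DESeq2 called 0. In edgeR 27 members (13.1%) had an unadjusted p under 0.05, against 11.7% of all loci and 16.6% of those with a 21UR name. Over all 3100 loci the share called was 0 in both directions. In 82 members the rescue and *rpb-9* libraries did not overlap, rescue being higher in 60 and lower in 22, against 43.3% of all loci and 45.8% of those with a 21UR name. edgeR called 0 of the 206 between rescue and wt as well, against 0% of all loci called lower and 0.0645% called higher. Between rescue and wt, 33 members (16.0%) had an unadjusted p under 0.05 in edgeR, against 17.7% of all loci and 18.8% of those with a 21UR name. In 137 members these libraries did not overlap, rescue being lower in 127 and higher in 10. The share was 66.5%, against 54.9% of all loci and 60.5% of those with a 21UR name. The 47 members that passed the minimum through wt alone had to have fewer reads in rescue, before scaling, so these shares are no support for a lower level.

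The 5 members with most wt nascent reads were 21UR-1490, 21UR-3203, 21UR-6682, 21UR-5085 and 21UR-5303, and all 5 are intergenic. 21UR-1490 had signals of 36.4 and 37.5 in *rpb-9*, 27.5 and 26.4 in rescue, and 80.7 and 71.1 in wt, and the wt libraries lay above the others. Its log2 fold change of *rpb-9* over wt, −1.04 (SE 0.34), did not pass (edgeR adjusted p = 0.072). 21UR-5085 had 7.33 and 11.7 in *rpb-9*, 11.8 and 20.5 in rescue, and 39.6 and 32 in wt, with a log2 fold change of −1.90 (SE 0.47, edgeR adjusted p = 0.031), over the threshold of 0.01. In 21UR-5303 *rpb-9* and wt overlapped, with 14.7 and 31.6 in *rpb-9*, 18.8 and 16.8 in rescue, and 31.0 and 26.4 in wt. 21UR-292, one of the lowest mature piRNAs of the set, had 10 and 31 nascent reads in *rpb-9*, 7 and 29 in rescue, and 11 and 23 in wt, with no separation of genotypes.

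**Figure D4:**
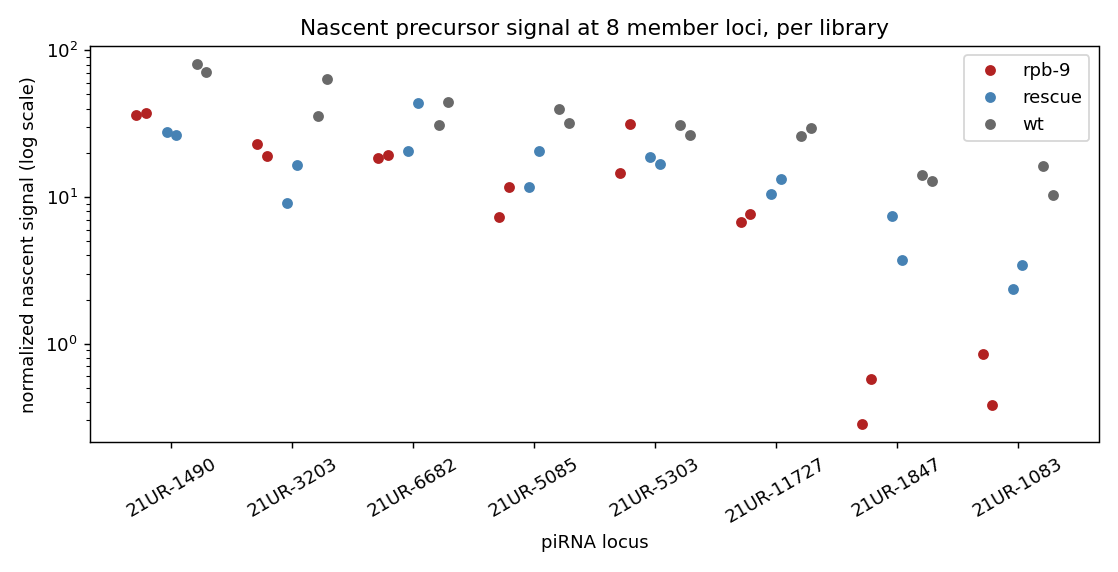
Normalized nascent signal per library (log scale) at 8 member loci: the 5 with most wt nascent reads, 21UR-11727, and the 2 loci called between rpb-9 and wt; colours are rpb-9, rescue and wt from left to right, with 2 libraries each. At 21UR-1847 and 21UR-1083 the rpb-9 libraries lie under 1 and the wt libraries over 10, whereas at 21UR-5303 they overlap.

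In the nucleoplasm the members were too scarce for a comparison of levels. Only 343 members had a nucleoplasmic read in any library, 327 of them also a nascent read. The reads per library were 441 and 204 in *rpb-9*, 542 and 538 in rescue, and 452 and 201 in wt, at 84 and 64, 135 and 145, and 91 and 50 loci. The summed signal was 477 and 308 in *rpb-9*, 547 and 942 in rescue, and 744 and 438 in wt. *rpb-9* overlapped wt (392.5 ± 119 against 591 ± 216, SD, n = 2 each, p = 0.667 in the exact permutation test). When libraries were scaled by their table totals instead, the log2 ratio of −0.59 turned to 0.55. In the *rpb-9* and wt libraries the 10 most read loci of any type held 96.2% to 99.1% of those totals. The rescue libraries were above both *rpb-9* libraries in signal (744 ± 280, SD, n = 2, exact p = 0.333) and overlapped wt.

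Of the 8 members tested in the nucleoplasm, edgeR called 0 between *rpb-9* and wt and 0 between rescue and *rpb-9*, with 0 at an unadjusted p under 0.05 in both, and DESeq2 called 0 in both. The share called over all 357 loci was 0 in every direction. In 1 of the 8 the *rpb-9* and wt libraries did not overlap, against 47.1% of all loci. This was 21UR-2679, named here after its values were seen, with 20 and 4 reads in *rpb-9*, 11 and 0 in rescue, and 0 and 0 in wt. 21UR-5916, whose piRNA begins with G, had the highest single value among the members named, with nucleoplasmic signals of 20.5 and 16.6 in *rpb-9*, 21.2 and 105 in rescue, and 28.0 and 13.1 in wt. 21UR-1847 had nucleoplasmic signals of 5.40 and 3.02 in *rpb-9*, 5.04 and 14.01 in rescue, and 13.2 and 17.4 in wt, but had too few reads to be among the 8.

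Precursor sequences at these loci differed at the 3′ end. All listed sequences begin 2 bases before the piRNA, and the most read nascent sequence is shown for 5 members chosen because it differed between genotypes, with the mature piRNA in capitals (WBcel235). The first 3 members ended later in *rpb-9* than in wt, and the last 2 ended earlier.
21UR-1490 in rpb-9 (chrIV:15373190-15373220, plus strand, 68 reads): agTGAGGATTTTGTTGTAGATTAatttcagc
21UR-1490 in wt (chrIV:15373190-15373215, plus strand, 208 reads): agTGAGGATTTTGTTGTAGATTAatt
21UR-5085 in rpb-9 (chrIV:14415813-14415853, minus strand, 12 reads): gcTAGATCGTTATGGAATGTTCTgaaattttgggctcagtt
21UR-5085 in wt (chrIV:14415835-14415853, minus strand, 63 reads): gcTAGATCGTTATGGAATG
21UR-5303 in rpb-9 (chrIV:16033323-16033370, plus strand, 45 reads): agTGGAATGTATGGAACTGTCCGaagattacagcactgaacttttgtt
21UR-5303 in rescue (chrIV:16033323-16033357, plus strand, 14 reads): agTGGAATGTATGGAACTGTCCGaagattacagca
21UR-5303 in wt (chrIV:16033323-16033350, plus strand, 52 reads): agTGGAATGTATGGAACTGTCCGaagat
21UR-2016 in rpb-9 (chrIV:16041604-16041623, minus strand, 26 reads): atTTCAAGACTGTGCCAGTT
21UR-2016 in wt (chrIV:16041596-16041623, minus strand, 33 reads): atTTCAAGACTGTGCCAGTTAAAaaaac
21UR-11727 in rpb-9 (chrIV:15687012-15687040, plus strand, 23 reads): aaTAGAATCGAACTTTTTTTTTCcttttt
21UR-11727 in wt (chrIV:15687012-15687056, plus strand, 156 reads): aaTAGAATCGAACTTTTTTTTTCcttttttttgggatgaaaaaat

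The most read rescue sequence equalled that of wt for 21UR-1490 (42 reads) and 21UR-5085 (31 reads), and that of *rpb-9* for 21UR-11727 (32 reads). A 19-nt sequence such as the wt 21UR-5085 species ends inside the piRNA and could not give the whole 21 nt. At 21UR-3203 the same 28-nt sequence was the most read in all 3 genotypes, with 112 reads in *rpb-9*, 63 in rescue and 392 in wt.
21UR-3203 in rpb-9, rescue and wt (chrIV:13878607-13878634, minus strand): aaTGGGACACACTTTTGGTTTTAaaatt

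Over all members together the nascent sequences were longest in *rpb-9*. The median length of the distinct sequences was 32 and 32 nt in *rpb-9*, 28 and 28 nt in rescue, and 29 and 30 nt in wt, and the genotypes did not overlap. *rpb-9* exceeded wt by 2.5 nt and rescue was 4.0 nt shorter than *rpb-9*, each with p = 0.333 in the exact permutation test, the smallest possible. When each read was counted, the medians were 31 and 31 nt in *rpb-9*, 27 and 27 nt in rescue, and 29 and 28 nt in wt. The abundant piRNAs had medians of 31 and 31 nt in *rpb-9*, 27 and 27 nt in rescue, and 29 and 29 nt in wt. The gap between rare and abundant medians was 1 nt in both *rpb-9* libraries and overlapped among genotypes.

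The shift was seen at both ends of the length range. Sequences of 40 nt or more made up 28.5% and 31.0% of distinct nascent sequences in *rpb-9*, 18.8% and 17.0% in rescue, and 22.3% and 23.3% in wt. Sequences under 23 nt, too short to hold the 2 leading bases and a whole piRNA, made up 12.4% and 11.3% in *rpb-9*, 23.03% and 22.1% in rescue, and 16.9% and 19.3% in wt. For both measures the 3 genotypes did not overlap, and rescue lay on the far side of wt from *rpb-9* (exact permutation p = 0.333 for each pair).

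**Figure D5:**
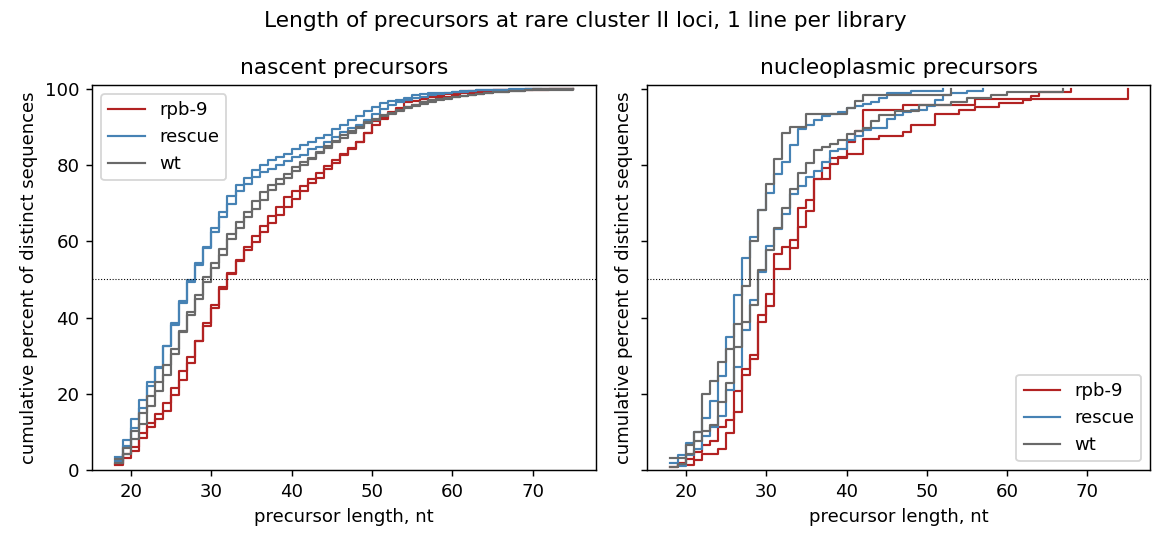
Cumulative percent of distinct precursor sequences of the members (vertical axis) up to a given length in nt (horizontal axis), 1 line per library, for nascent (left) and nucleoplasmic (right) RNA; the dotted line marks the median. The nascent rpb-9 lines cross it at 32 nt, the rescue lines at 28 nt and the wt lines at 29 and 30 nt, and the nucleoplasmic lines of rescue and wt overlap.

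The median nucleoplasmic sequence was also longer in *rpb-9*, from far fewer species. The medians were 31 and 31 nt in *rpb-9*, 29 and 27 nt in rescue, and 29 and 28 nt in wt, a difference of 2.5 nt between *rpb-9* and wt (exact permutation p = 0.333). Over the 8 loci read in all 4 libraries compared the difference was 2.25 nt and the genotypes overlapped (exact permutation p = 0.667, chosen after seeing the data), and of the 2 loci with at least 3 distinct sequences in both genotypes 1 was longer and 1 shorter in *rpb-9*. Rescue and wt overlapped. Sequences under 23 nt made up 6.604% and 4.17% in *rpb-9*, 9.04% and 13.6% in rescue, and 10.2% and 20.0% in wt. The libraries held 106 and 72 distinct sequences in *rpb-9*, 177 and 198 in rescue, and 118 and 60 in wt.

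The longer median was not a uniform change of every locus. At the 157 loci with at least 3 distinct nascent sequences in both genotypes, the locus median was longer in *rpb-9* than in wt at 91, shorter at 50 and equal at 16, with a median difference of 1.0 nt. Between rescue and *rpb-9*, 131 loci could be compared, and rescue was longer at 27 and shorter at 98, with a median difference of −2.0 nt. Between rescue and wt, 223 loci had a median difference of −1.0 nt. Each set of loci had to be read in both genotypes, so the 3 sets differ.

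Length could be tested at 28 members with at least 10 reads in every nascent library, those of rescue included. limma called 0 of them at an adjusted p under 0.05, with 6 at an unadjusted p under 0.05, and called 0 percent of the 1075 loci tested. The mean length was longer in *rpb-9* at 21 of the 28, with a median difference of 1.55 nt and a range from −5.02 to 8.62 nt. The median was 0.76 nt without wt replicate 2 and 2.45 nt without wt replicate 1. Mean length was also longer in *rpb-9* at 226 of the 324 tested loci with a 21UR name, and at 518 of all 1075. Of those 324, 49 had an unadjusted p under 0.05 in limma. At 14 members the libraries did not overlap, 10 of them longer in *rpb-9*, against 46% of all loci and 52.2% of the 324 with a 21UR name. Of the 169 loci with a 21UR name that did not overlap, 132 were longer in *rpb-9*. In the nucleoplasm none of the 73 loci with enough reads, of which 24.7% did not overlap between *rpb-9* and wt, was a member.

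The largest differences in both directions are given as descriptions, since none passed. 21UR-1714 had mean lengths of 38.1 and 36.0 nt in *rpb-9*, 26.0 and 28.4 nt in rescue, and 30.3 and 26.6 nt in wt, a difference of 8.62 nt between *rpb-9* and wt (SE 1.78, limma adjusted p = 0.214). 21UR-966, which lies near it, had 30.2 and 36.1 nt in *rpb-9*, 25.1 and 21.96 nt in rescue, and 25.5 and 26.3 nt in wt (difference 7.27 nt), and 21UR-7135 followed with 6.96 nt. In the other direction 21UR-2016 had 19.4 and 20.9 nt in *rpb-9*, 22.5 and 22.4 nt in rescue, and 24.6 and 24.3 nt in wt (difference −4.32 nt, SE 0.97, limma adjusted p = 0.236). 21UR-11727 had 34.3 and 33.3 nt in *rpb-9*, 35.5 and 32.3 nt in rescue, and 37.7 and 40.03 nt in wt (difference −5.02 nt). At 21UR-1504, with a difference of −1.61 nt, *rpb-9* and wt overlapped.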

How the data were processed

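Mature piRNA values were deposited by the authors as log2 values, 1 per genotype: 5′-dependent small RNA reads (trimmed with cutadapt, mapped with STAR to ce11, counted with featureCounts with multi-mapped reads as fractions), scaled to RPM (a common library size) with a pseudocount of 1. Precursors were deposited as read counts per distinct sequence and library, beside a normalized signal that the authors obtained by multiplying counts by 1 constant per library, set in a way not given in the sources used here. In this table the libraries named by strain sx1316 were taken as wt by elimination, since the others are named for *rpb-9* and rescue. Lengths were taken from the same table, and 3815 repeated lines were removed. Of 6 deposited tables, 2 were used.

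Reads behind the mature values were recovered as whole reads (tolerance 4e-09) after the method was tested on simulated data. Counts were summed per locus and fitted over all loci with at least 10 counts in 2 libraries by edgeR 4.0.16 (quasi-likelihood, authors' constants as scaling, Benjamini-Hochberg adjustment), with DESeq2 1.42.0 as an alternative. Mean lengths were fitted with limma 3.58.1 (R 4.3.3), and sums and medians were compared by exact permutation over libraries. Nothing says whether replicates were separate cultures, so p-values measure the spread between these libraries. Members named were those the study names, those nearest the threshold, lowest in wt, highest in wt at 0 in *rpb-9*, with the largest and smallest drops, with most wt precursor reads, called, or with the largest length differences; 1 of them is not reported here. Members and lists were chosen with earlier results of these data known.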

Additional observations from a re-analysis of the deposited data

How the results depend on the processing

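The count of nascent members called between *rpb-9* and wt, 2 of 206, was small under every setting and unstable. It was 1 with TMM scaling, 6 with DESeq2, 6 with no filter on low counts, 13 at an adjusted p under 0.05 with no fold threshold, 0 with only those 2 genotypes in the fit, 1 with the replicate block, 1 at a wt threshold of 2, 0 with the repeated lines kept, and 0 to 2 when 1 library was left out. The other counts of calls, for level and for length, were 0 under every alternative run. The median difference in mature level between *rpb-9* and wt (−0.49) was −1.46 with a pseudocount of 0.1, −1.02 over members with at least 1 RPM, −0.40 at a wt threshold of 2 and −0.56 without members listed at 0. That between rescue and wt (−0.02) was −0.046 with the smaller pseudocount and −0.026 at a wt threshold of 2, and turned to 0.048 over members with at least 1 RPM and to 0.0077 without members at 0. The nucleoplasmic log2 ratio of summed signal (−0.59) turned to 0.55 when scaled by table totals, an alternative chosen after seeing the data, and ran from −0.94 to −0.16 without single libraries. The nascent ratio (−1.22) ran from −1.38 to −1.07 without single libraries and was −1.23 with the replicate block. Nothing in the labels says that a replicate number marks a shared batch, and with 2 libraries per group the numbers were not taken as pairs. The correlation of same-numbered deviations was −0.03 between nascent *rpb-9* and wt and ran up to 0.16 over the 6 pairs of groups, highest between nucleoplasmic rescue and wt. The block left the length difference at 2.5 nt. Depth limits single members: with a median of 4 wt reads, a mature value is a few molecules.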
